A study of Mus musculus with 2 samples.

Results

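Replication-dependent histone genes supply the core and linker histones that package newly made DNA, and in the mouse they lie in 4 clusters named Hist1 to Hist4. Here they were taken as all protein-coding entries in GENCODE M21 whose symbols begin with Hist1h, Hist2h, Hist3h or Hist4h. The rule found 67 of 21911 protein-coding genes. Of these, 54 lie in Hist1 on chromosome 13, 10 in Hist2 on chromosome 3, 2 in Hist3 on chromosome 11 and 1 in Hist4 on chromosome 6. By histone class, 13 encode H4, 6 encode linker histone H1, 18 encode H2A, 18 encode H2B and 12 encode H3. Of the 67, 3 are testis variants, namely Hist1h1t (H1t), Hist1h2aa (TH2A) and Hist1h2ba (TH2B).

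DNase-seq, which maps accessible chromatin by where the enzyme DNase I cuts it, was applied to whole testis of male B6CASTF1/J mice aged 14 days. B6CASTF1/J is a hybrid of C57BL/6J and CAST/EiJ. There was 1 group with 2 libraries, labelled biological replicates 1 and 2, and no treatment or genotype was compared. Replicate 1 is labelled as coming from 3 males and replicate 2 states no number, and the donor label is the same for both. Differences between these libraries may therefore be partly technical. With 1 group, no test of a difference between conditions could be made, and comparisons between sets of genes below are descriptions.

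Most of these genes are transcribed in S phase, and their mRNAs end in a stem-loop in place of a poly(A) tail. Their promoters are short. H4 promoters are known for a site bound by the zinc-finger factor HINFP, many H2B promoters for an octamer bound by the POU factor Oct-1, and H2A and H2B genes often lie head to head and share the DNA between them. During spermatogenesis the testis variants partly replace their somatic counterparts: TH2A and TH2B are made earlier in germ cell development than H1t, a histone of pachytene spermatocytes.

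Replicate 1 had 101172 and replicate 2 had 117359 peaks in the longer of its 2 deposited lists, with median peak values of 0.543 and 0.506, and the footprint lists held 269247 and 349555 entries. Peak values are the authors' signal on a scale set per library, and the depth in reads is unknown. All 5 germ cell markers examined had a promoter peak in both libraries, with a median value of 8.56 ± 0.020 (SD, n = 2 libraries). So did 5 of 5 Sertoli cell markers (median 2.88 ± 0.49) and 4 of 5 Leydig cell markers (0.652 ± 0.089, with no peak at Hsd3b1). None of 5 markers of other organs had one. In whole tissue, fewer cells of a type and less accessibility per cell cannot be told apart.

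Nearly all replication-dependent histone genes had an accessible promoter. A peak lay within 1000 bp of the gene's 5′ end in both libraries for 61 of 67 members (91.0%), against 64% of all protein-coding genes. The 6 other members had no such peak in either library. The promoter value, meaning the highest peak value in that window or 0, had a median over the members of 2.87 in replicate 1 and 3.27 in replicate 2, or 3.07 ± 0.29 (mean ± SD, n = 2 libraries). Over all protein-coding genes the medians were 1.03 and 0.959, or 0.996 ± 0.052. The members' median was higher in both libraries, and 57 of 67 members exceeded the median of all genes in both.

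Because neighbouring histone genes lie close together, a window of 1000 bp can take in a neighbour's peak. A narrower promoter of 300 bases, 250 before the 5′ end and 50 after it, was therefore also used, chosen after the data had been seen. There, 59 of 67 members had a peak in both libraries, against 53.8% of all genes, and the median was 3.01 ± 0.36, against 0.530 ± 0.0027. The highest peak of the wide window lay nearer the start of another member, other than a divergent partner, for 4 members in replicate 1 and 5 in replicate 2. Hist1h3a was the clearest case. Its promoter value of 12.7 and 13.2 came from the peak of Hist1h4a, centred 956 bp from its own start, whereas its 300-base promoter held values of 2.76 and 3.27. Hist2h2ab and Hist2h3b likewise took their values from Hist2h2ac and Hist2h2bb. For Hist1h3b the peak of Hist1h2ab gave 3.01 in replicate 2, against 2.55 in its 300-base promoter. In replicate 1 both were 2.36, a tie that is counted among the 4.

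**Figure D1:**
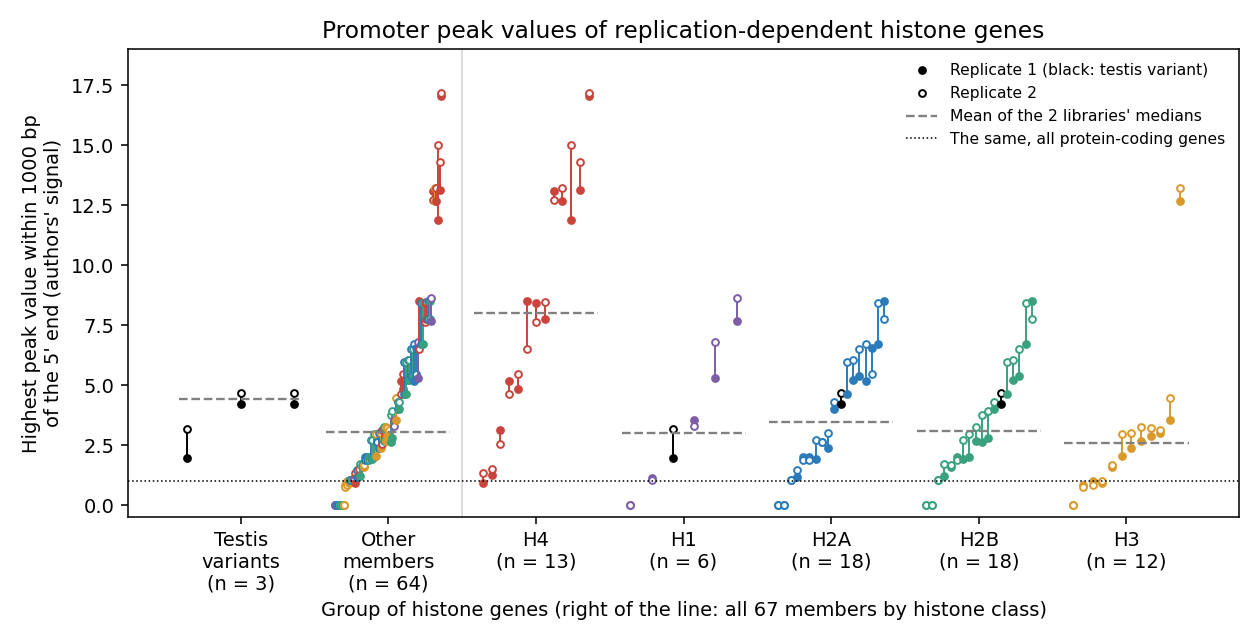
Promoter values (highest peak value within 1000 bp of the 5′ end, authors' signal) of each member in replicate 1 (filled) and replicate 2 (open), for the testis variants and the other members on the left and for all 67 members by histone class on the right. Dashed lines are the mean of the 2 libraries' medians and the dotted line is that of all protein-coding genes (0.996); H4 genes reach 17.1, and all but 1 of the H3 genes stay below 5.

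The testis variants did not stand out by peak height. Hist1h2aa and Hist1h2ba shared 1 highest peak, with a value of 4.21 in replicate 1 and 4.68 in replicate 2, and Hist1h1t had 1.98 and 3.18. The median of the 3 variants was 4.44 ± 0.33 and that of the 64 other members 3.05 ± 0.31 (SD, n = 2 libraries). Against the other members of Hist1 alone, the cluster that holds all 3 variants, the values were 4.44 ± 0.33 and 3.73 ± 0.25. The gap exceeded the spread between libraries, but it rests on 3 genes of which 2 share a peak. The other members ran from 0 to 17.1 and so enclosed all 3 variants.

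Set beside their own class in Hist1, the variants fell on both sides in the wide window. Hist1h1t, at 2.58 ± 0.85, was lower than the median of the other 5 H1 genes, 3.43 ± 0.19, and ranked 42 of 67 members. In replicate 2 the gap was small, 3.18 against 3.30, where replicate 1 had 1.98 against 3.56. That median counts Hist1h1d as 0. Hist1h2aa, at 4.44 ± 0.33, was above the median of the other 12 H2A genes of Hist1, 3.42 ± 0.34. In the 300-base promoter this held in replicate 1 (4.21 against 3.18) but not in replicate 2 (3.52 against 3.66). Hist1h2ba, with the same highest peak in the wide window, was above the median of the other 14 H2B genes, 2.92 ± 0.72. Both ranked 26 of 67 members of all classes. The highest value in H2A, and also in H2B, was 8.49 in replicate 1 and 8.44 in replicate 2.

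Breadth set the TH2A and TH2B pair apart more than height did. A deposited track gives a false discovery rate (FDR) for the local cut rate, and it was used to count bases at an FDR of 0.001 or below among the 2001 bases around each 5′ end. Hist1h2ba had 1901 such bases in replicate 1 and 1914 in replicate 2, which by mean ranked 1 of 67 members. Hist1h2aa had 1595 and 1608 and ranked 3, behind Hist3h2a with 1683 and 1882. The windows of Hist1h2ba and Hist1h2aa hold mostly the same DNA, so their ranks are not separate observations. Hist1h1t had 830 and 1233 and ranked 16. The 20 members of the 10 other divergent pairs that have a peak ran from 318 to 1215 bases in replicate 1 and from 336 to 1356 in replicate 2. Both genes of the testis pair thus lay above every member of those pairs in both libraries, while their shared peak value of 4.44 was lower than that of 5 of the 10 pairs. The median over all members was 775 and 780 bases, and over all protein-coding genes 369 and 359. Hist1h4c reached all 2001 bases in replicate 2 but 742 in replicate 1.

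**Figure D2:**
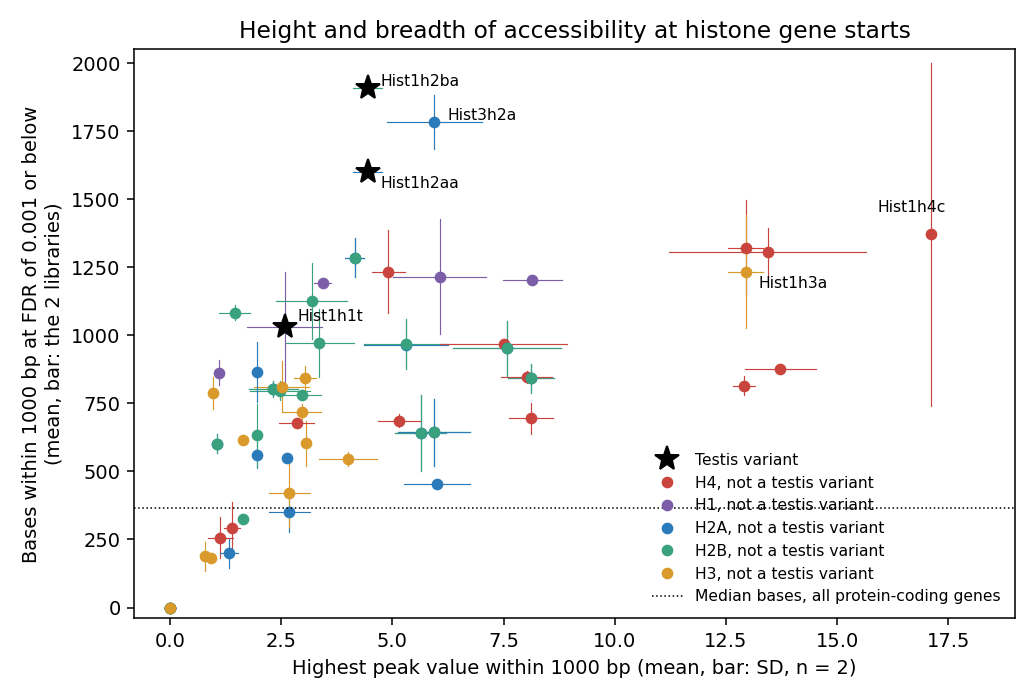
Promoter value of each member (x axis, mean with SD, n = 2) against the number of bases within 1000 bp of the 5′ end at an FDR of 0.001 or below (y axis, mean with a bar joining both libraries), with testis variants as stars. Hist1h2ba and Hist1h2aa sit near the top of the y axis at a value of 4.44, whereas Hist1h4c has the highest value, 17.1.

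Footprints, short stretches inside accessible DNA where cuts are depleted, followed the same order. The window of Hist1h2ba held 19 footprints in replicate 1 and 29 in replicate 2, and that of Hist1h2aa 16 and 26. Members of the other divergent pairs with a peak held 4 to 14 and 6 to 21. By mean number, Hist1h2ba ranked 1, Hist3h2a (20 and 23) 2 and Hist1h2aa 3 of 67. The windows of the testis pair, with starts 306 bp apart, hold mostly the same DNA, so many footprints count for both genes. In the 300-base promoter Hist1h2ba held 6 and 6 footprints, against a median of 5 and 5 for H2B. Hist1h2aa held 5 and 6 there, against 6 and 5 for H2A. A longer accessible stretch has more room for footprints, so breadth and the number of footprints are not independent.

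The layout of this pair differed between the libraries. The starts of Hist1h2ba (minus strand) and Hist1h2aa (plus strand) lie 306 bp apart on chromosome 13, more than 100 kb from the next member. In replicate 1 a single peak of 860 bp covered both starts and the DNA between them (chr13:23933901-23934760, mm10). In replicate 2 the highest peak was 80 bp long and lay 16 to 95 bp after the start of Hist1h2ba (chr13:23934061-23934140). A second peak there, with a value of 3.52, began at the start of Hist1h2aa and ran 378 bp into the gene. The libraries thus agreed in height and breadth but not in how the authors' caller divided the region.

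Hist1h1t had its highest peak over the gene body. This peak ran from 7 to 626 bp after the start in replicate 1 and from 67 to 606 bp after it in replicate 2, so the 300-base promoter held 1.98 in replicate 1 and 0 in replicate 2. Of its 12 and 13 footprints, 11 and 13 lay after the start. Both peaks lie within the gene (chr13:23695814-23696725). Of the bases at an FDR of 0.001 or below, 674 and 1001 lay from the start onwards and 156 and 232 before it. Hist1h1t also had the largest difference between libraries among members with a peak in both (log2 of replicate 2 over replicate 1 of 0.68).

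The promoters of both kinds of variant are shown to set the footprinted DNA of the TH2A and TH2B pair beside that of H1t. They are RefSeq promoters (GRCm38.p6, the build of mm10), from 250 bases before the RefSeq start to 50 after it, with capitals for bases inside a footprint in both libraries. The RefSeq names of these genes are H2ac1 and H1f6. The first sequence also contains most of the Hist1h2ba promoter, read from the opposite strand.
Hist1h2aa, chr13:23934187-23934486, plus strand: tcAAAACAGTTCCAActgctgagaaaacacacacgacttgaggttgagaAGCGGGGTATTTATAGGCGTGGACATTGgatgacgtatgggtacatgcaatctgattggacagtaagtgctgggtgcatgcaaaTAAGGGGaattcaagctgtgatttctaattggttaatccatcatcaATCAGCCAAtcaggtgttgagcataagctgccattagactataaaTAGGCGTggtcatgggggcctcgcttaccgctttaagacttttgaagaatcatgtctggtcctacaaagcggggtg
Hist1h1t, chr13:23695561-23695860, plus strand: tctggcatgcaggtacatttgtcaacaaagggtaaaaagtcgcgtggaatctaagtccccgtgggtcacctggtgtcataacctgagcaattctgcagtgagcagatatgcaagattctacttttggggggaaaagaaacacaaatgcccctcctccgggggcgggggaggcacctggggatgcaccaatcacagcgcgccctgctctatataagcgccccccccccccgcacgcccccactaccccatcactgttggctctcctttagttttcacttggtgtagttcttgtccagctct

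In the Hist1h2aa sequence, 64 bases lay in a footprint in both libraries, against a median of 36.5 over the 62 members found in the RefSeq table. This ranked 14 and lay within the range of somatic divergent pairs. Hist1h2ad and Hist1h2bf had 100 bases each, and Hist1h2ae and Hist1h2bg 35 each. Hist1h1t had 0 such bases, with 11 in a footprint in replicate 1 alone. Between Hist1h2ba and Hist1h2aa the search for exact motif letters found some that lay in footprints. A MYB site (AACNGTT) at position -41 from the 5′ end of Hist1h2ba had all 7 of its bases in a footprint in both libraries, and a TBP box (TATAAA) at -94 all 6. Of 4 NF-Y boxes (CCAAT) between the genes, those at -219 and -108 from the Hist1h2ba start had 4 of 5 bases in footprints in both libraries, and those at -195 and -138 had none. The octamer ATTTGCAT at -164 touched the edge of a footprint, with 1 of 8 bases in both libraries. Hist1h1t had 1 NF-Y box at -68 and 1 AC box (AAACACA, a motif of H1 promoters) at -117, neither of them in a footprint in either library.

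H4 genes carried the highest promoter values. The median of the 13 H4 genes was 8.42 in replicate 1 and 7.62 in replicate 2 (8.02 ± 0.57, SD, n = 2 libraries), against 2.62 and 3.15 (2.89 ± 0.38) for the 54 members of other classes. The gap was wider than the spread between libraries, and the 300-base promoter gave 8.02 ± 0.57 and 2.67 ± 0.44. H4 genes made up 6 of the 10 highest members, and all 13 had a peak in both libraries. The classes still overlapped, since the H4 values ran from 0.930 to 17.1 in replicate 1 and from 1.33 to 17.2 in replicate 2.

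Hist1h4c was highest of all members, with 17.1 in replicate 1 and 17.2 in replicate 2. Hist1h4i followed with 13.2 and 14.3, Hist1h4h with 11.9 and 15.0, Hist1h4a with 12.7 and 13.2 and Hist1h4k with 13.1 and 12.7. The means of these 4 lay between 12.9 and 13.7, a smaller gap than the SD of 2.21 of Hist1h4h. In the middle, Hist1h4b had 7.77 and 8.47, Hist1h4d 8.42 and 7.62 and Hist4h4, the single Hist4 gene, 8.51 and 6.50. Hist1h4f (4.82 and 5.48) and Hist1h4j (5.17 and 4.65) were lower. Hist2h4, the H4 gene of Hist2, had 3.13 and 2.57. The lowest were Hist1h4m, with 1.27 and 1.52, and Hist1h4n, with 0.930 and 1.33.

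All 13 H4 genes had the middle of their highest peak inside the 300-base promoter in both libraries, against 44 and 40 of the 61 members with a peak. The median width of the H4 peaks was 220 bp in each library, against 220 and 240 bp for H3 and 240 and 260 bp over all members. At 40 bp before the start, 92.3% of H4 genes lay in a peak in each library, against 47.8% and 48.0% of all protein-coding genes. Other classes came near this: H3 had 83.3% in each library and H2A 88.9% and 66.7%. H2B had 50% and 61.1%, and H1 50% and 66.7%. Between 60 and 40 bp before the start, footprints covered on average 51.2% and 56.9% of the bases of H4 genes. Over all genes they covered 16.0% and 17.5%.

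**Figure D3:**
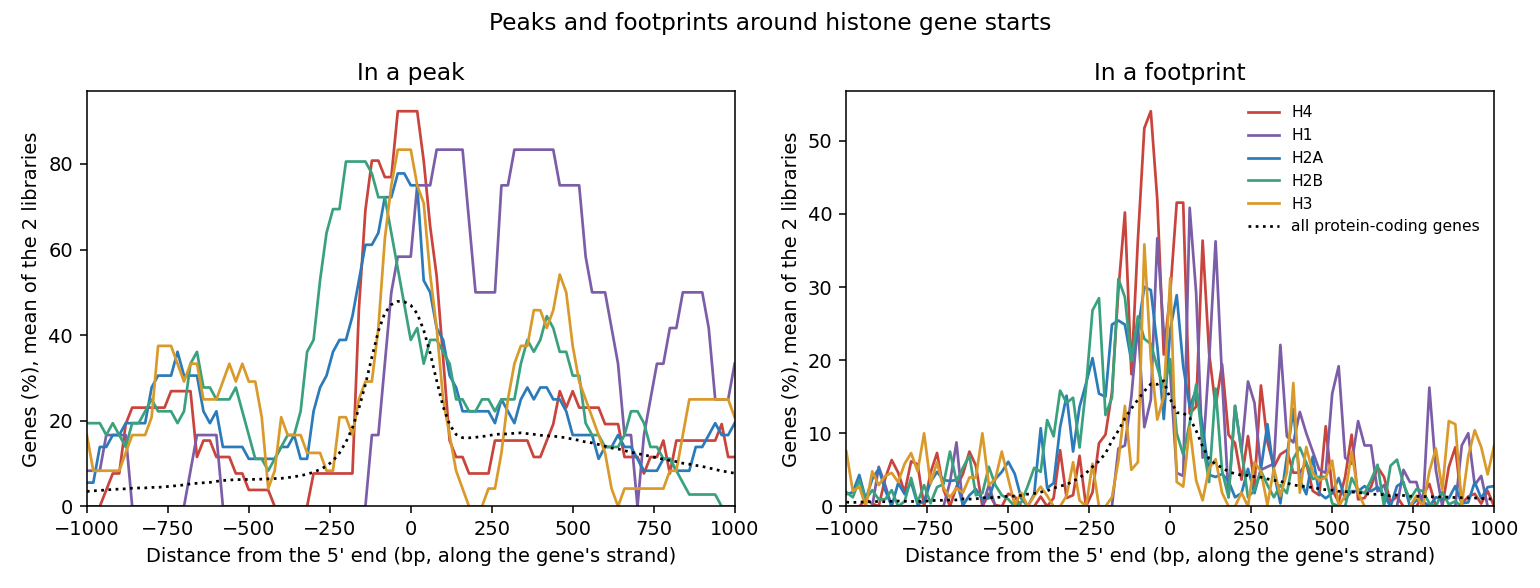
Share of genes of each histone class in a peak (left) and share of their bases in a footprint, averaged over short consecutive stretches (right). Values are the mean of both libraries by distance from the 5′ end along the gene's strand, with all protein-coding genes dotted. The H4 curve is narrow and centred just before the start, H2B peaks lie further before it, and H1 peaks extend into the gene.

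Among the other classes, H2B and H1 peaks lay farthest from the H4 position, whose median middle was at -36 and -34 bp. The median middle of the highest peak lay at -165 and -161 bp for H2B, at -50 and -53 bp for H2A and at -13 and -49 bp for H3 in replicates 1 and 2. For H1 genes it lay at 234 and 204 bp, within the gene, and 1 of the 5 H1 genes with a peak had its middle inside the 300-base promoter.

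The H4 promoters shared the HINFP core GGTCCG. It was found in 12 of 13 H4 promoters (92.3%), against 9.58% of all promoters of this length. In Hist1h4a, the exception, these letters are not in the window. The middle of the core lay between -78 and -8 from the 5′ end. In 10 of the 12 genes it overlapped a footprint by at least 1 base in both libraries, and in Hist1h4m and Hist1h4n in replicate 2 only. In 9 genes all 6 bases of the core lay in a footprint in both. Of all 2311 matches in promoters, 20.8% overlapped a footprint in both libraries and 9.22% lay wholly inside. These shares include promoters with no footprint: 51.4% of all promoters held one in both libraries, whereas all 13 H4 promoters did. The 30 bases around the core are shown for H4 genes of 3 clusters, read from the GRCm38.p6 genome along the gene, with the core in capitals.
Hist1h4c, chr13:23698487-23698516, minus strand: agttttcaaccaGGTCCGcagaaggcctat
Hist1h4i, chr13:22041391-22041420, minus strand: tgttttcactccGGTCCGcaagttccctat
Hist1h4h, chr13:23531027-23531056, plus strand: agtcttcaatcaGGTCCGaaaacactgcat
Hist1h4k, chr13:21750568-21750597, minus strand: ggttctcatttcGGTCCGcccgccgcagta
Hist4h4, chr6:136804446-136804475, minus strand: tgttttcaatcaGGTCCGctcccaggaaat
Hist2h4, chr3:96263362-96263391, minus strand: agttttcaatctGGTCCGatcctctcatat

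The same 30 bases as in Hist1h4i also stood in Hist1h4m and Hist1h4n, so 3 genes with this identical stretch had promoter values as far apart as 13.7 ± 0.81 in Hist1h4i, 1.39 ± 0.18 in Hist1h4m and 1.13 ± 0.28 in Hist1h4n. Hist1h4m and Hist1h4n are near copies of each other, with 99.67% identity over 300 bases, and 5.58% of the 32-base words of their promoters occur once in the genome. For Hist1h4i that share was 97.4%. The part of sequence copies in the low values was not tested.

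The Hist1h4c promoter is printed whole, as the promoter with the highest value. Capitals mark bases in a footprint in both libraries (99 bases), and the long capital run holds the core shown above.
Hist1h4c, chr13:23698409-23698708, minus strand: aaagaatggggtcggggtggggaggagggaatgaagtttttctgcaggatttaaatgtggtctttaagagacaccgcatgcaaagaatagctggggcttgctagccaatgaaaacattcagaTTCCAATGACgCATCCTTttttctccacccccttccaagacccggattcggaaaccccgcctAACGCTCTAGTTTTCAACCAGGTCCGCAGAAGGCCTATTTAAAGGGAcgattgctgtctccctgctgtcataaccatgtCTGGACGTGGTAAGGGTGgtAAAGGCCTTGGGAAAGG

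H2A and H2B genes, which encode the histones of the H2A-H2B dimer, were intermediate. The median was 3.48 ± 0.25 for H2A and 3.08 ± 0.61 for H2B, which did not differ beyond their spread, and 16 of 18 genes of each class had a peak in both libraries. Their values are tied by position. There were 13 divergent pairs of members with starts at most 1000 bp apart, of which 12 joined an H2A and an H2B gene and 1 joined Hist1h2bh and Hist1h3f. The distance between starts ran from 176 to 660 bp, with a median of 268. In 11 of the 13 pairs the same peak was the highest of both windows in both libraries, against 96.1% of 749 divergent pairs of protein-coding genes, so sharing was no more frequent than among divergent genes in general. The 2 other pairs had no peak. In 9 pairs the shared peak overlapped the DNA between the starts in both libraries.

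The shared peaks differed widely in height. Hist1h2an and Hist1h2bp had 8.49 in replicate 1 and 7.75 in replicate 2, the highest pair, and Hist1h2ag and Hist1h2bj had 6.73 and 8.44. Hist1h2ad with Hist1h2bf (5.37 and 6.52), Hist1h2ah with Hist1h2bk (5.23 and 6.04) and Hist1h2ac with Hist1h2bc (4.65 and 5.97) came next. These are all pairs of somatic core histone genes. Hist1h2ai with Hist1h2bl had 4.0 and 4.31, close to the testis pair. At the low end, Hist1h2ae and Hist1h2bg had 1.06 and 1.05, near the median of all genes. Hist1h2ak with Hist1h2bn (1.94 and 2.71), Hist2h2ac with Hist2h2be (2.02 and 1.89) and Hist1h2bh with Hist1h3f (1.60 and 1.66) lay between.

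The Hist1h2ag promoter, which spans most of the DNA shared with Hist1h2bj 270 bp away, is shown as a tall somatic pair to set beside the testis pair above. Its RefSeq name is H2ac11 and 96 of its bases lay in a footprint in both libraries.
Hist1h2ag, chr13:22042900-22043199, minus strand: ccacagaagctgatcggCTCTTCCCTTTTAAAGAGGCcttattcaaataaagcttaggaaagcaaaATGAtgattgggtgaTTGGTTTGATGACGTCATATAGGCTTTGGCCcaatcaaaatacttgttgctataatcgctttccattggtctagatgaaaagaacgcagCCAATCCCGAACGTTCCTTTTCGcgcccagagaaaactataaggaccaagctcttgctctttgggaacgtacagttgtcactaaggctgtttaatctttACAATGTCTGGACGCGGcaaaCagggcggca

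This promoter held a CRE (TGACGTCA, the site of CREB and ATF factors) with all 8 bases in a footprint in both libraries. Of its 5 NF-Y boxes, the one at -85 lay wholly in a footprint in both libraries, the one at -175 with 4 bases and the one at -144 with 1, and the others had no base in a footprint common to both.

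**Figure D4:**
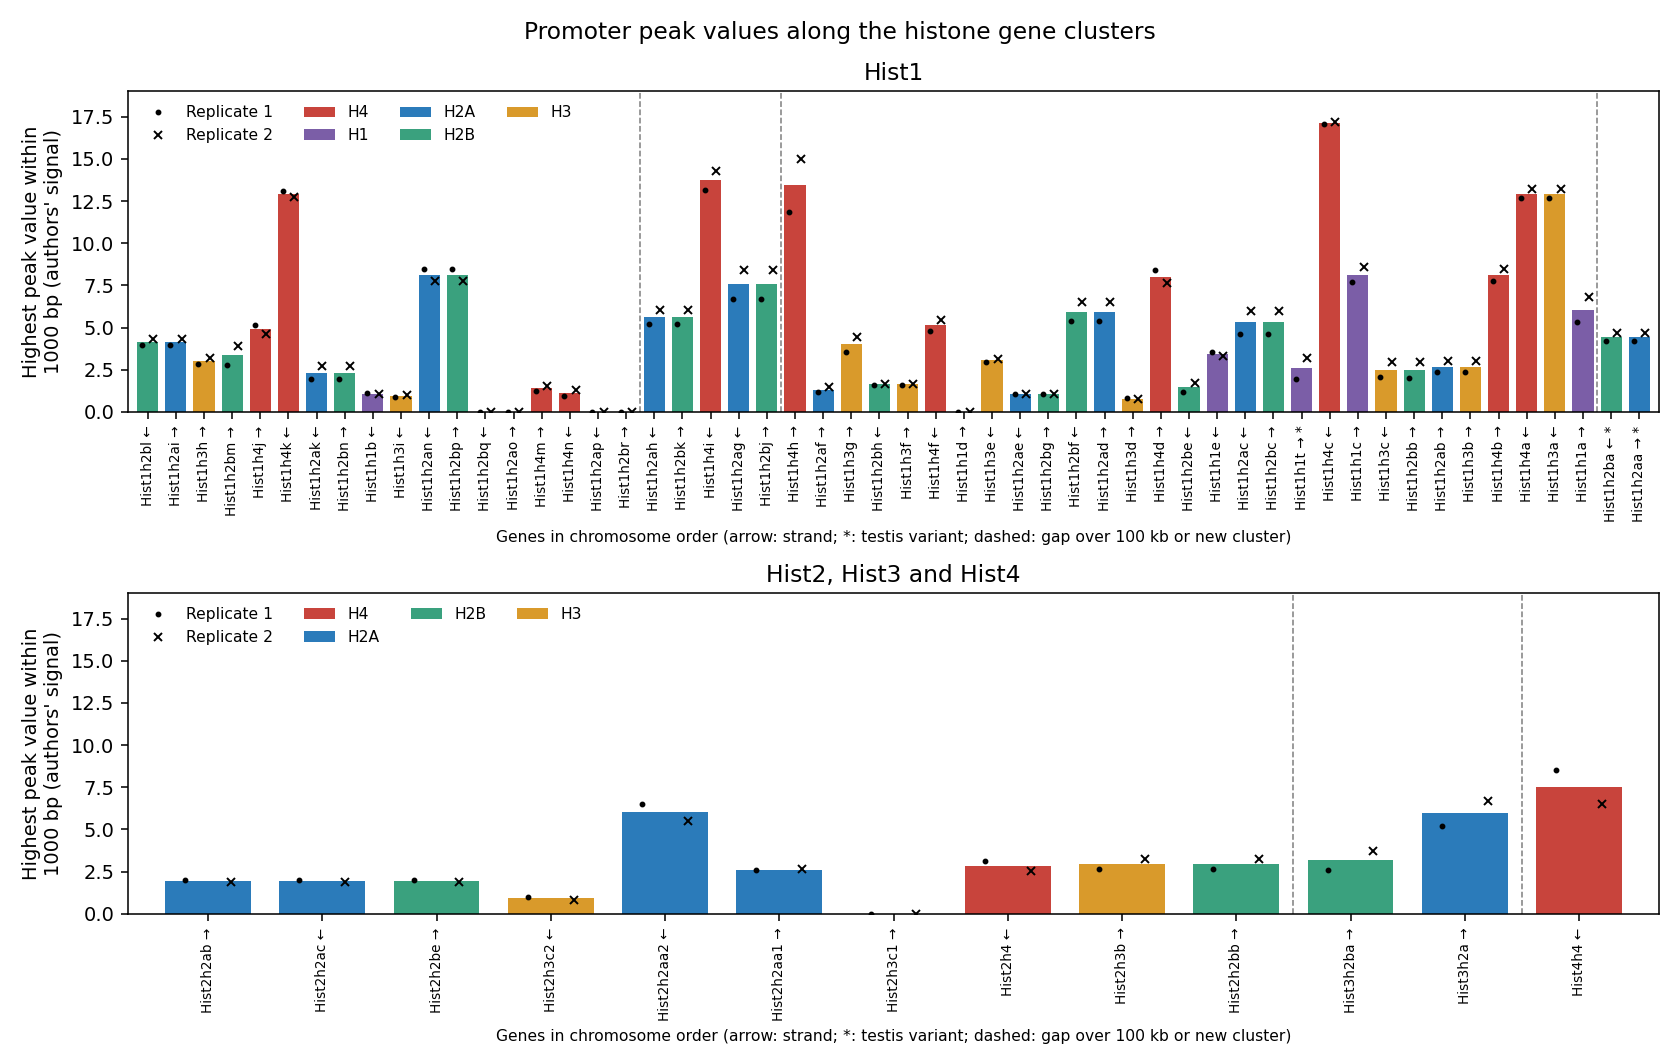
Promoter values of all 67 members in chromosome order, Hist1 above and Hist2, Hist3 and Hist4 below. Bars are means of 2 libraries coloured by histone class, points and crosses are replicates 1 and 2, arrows give the strand and stars mark testis variants; tall H4 bars stand between lower neighbours, and neighbouring H2A and H2B bars are often equal because they share a peak.

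H1 genes, which encode the linker histones, had a median of 3.01 ± 0.33 and differed widely among themselves. Hist1h1c had 7.68 in replicate 1 and 8.62 in replicate 2, and Hist1h1a 5.32 and 6.81. Hist1h1e had 3.56 and 3.30 and Hist1h1b 1.15 and 1.05. Hist1h1d had no peak in its window. The annotated 5′ end of that gene in GENCODE differs from its RefSeq start by -1770 bp, that is, it lies upstream. Peaks of 2.34 and 3.52 overlapped the window around the RefSeq start, and with RefSeq starts 62 members had a peak in both libraries.

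H3 genes had the lowest median, 2.60 ± 0.54, and 1.73 ± 0.15 in the 300-base promoter. There Hist1h3f had no peak in either library, against 1.60 and 1.66 in the wide window, and Hist2h3b had 1.19 and 1.28, against 2.67 and 3.27. Apart from Hist1h3a, the highest was Hist1h3g with 3.55 in replicate 1 and 4.46 in replicate 2. The lowest with a peak was Hist1h3d, with 0.823 and 0.770. Hist2h3c1 had none. In H3 the median lay above that of all genes in both libraries, as it did in every class.

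By cluster, Hist1 had a median of 3.83 ± 0.39 over 54 genes and Hist2 2.27 ± 0.061 over 10. The Hist3 median was 4.57 ± 0.93 over 2 genes, and Hist4h4, alone in its cluster, had 7.50 ± 1.4. In Hist2 the highest gene was Hist2h2aa2, with 6.53 in replicate 1 and 5.48 in replicate 2. Hist2h2aa1 had 2.62 and 2.63, Hist2h2bb 2.67 and 3.27, a value shared with Hist2h3b, and Hist2h3c2 0.995 and 0.842. Hist2h2ab, Hist2h2ac and Hist2h2be all had 2.02 and 1.89 from 1 peak. In Hist3, Hist3h2a had 5.19 and 6.71 and Hist3h2ba 2.62 and 3.75. Hist3h2a also had the second largest number of bases at an FDR of 0.001 or below.

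Accessible sites within the clusters lay mostly at the histone genes themselves. Members of Hist1 fall into 4 stretches separated by more than 100 kb, of 18, 5, 29 and 2 genes. In the longest, from Hist1h4h to Hist1h1a, 43 of 53 peaks in replicate 1 and 53 of 68 in replicate 2 lay within 1000 bp of a member's start. In the stretch from Hist1h2bl to Hist1h2br the counts were 26 of 29 and 28 of 34, and in Hist2 they were 17 of 18 and 16 of 17.

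Of the 6 members with no peak, 5 lie in repeated sequence. The divergent pairs Hist1h2ao with Hist1h2bq and Hist1h2ap with Hist1h2br had none of their 32-base promoter words at a single place in the genome (0%), and the median word occurred at 2 places. For Hist2h3c1 the share was 11.9%. Hist1h1d, the sixth, had 100% and is the gene with the displaced 5′ end. In all, 10 members had under 50% such words. Of these, 5 had a peak in both libraries, against 56 of the 57 other members. Counting members without a peak as 0, the median over all 10 was 0.443 ± 0.031 and that over the 57 was 3.94 ± 0.53. The 5 with a peak ran from 0.918 (Hist2h3c2) to 6.01 (Hist2h2aa2). How the authors placed reads that match several sites is not known here, and the part of it in these zeros was not tested. In Hist2h2aa2, with values of 6.53 and 5.48, the share was 11.9% in the promoter and 40.6% within 1000 bp of the start. Within 1000 bp it was 19.4% for Hist2h3c1 and 0% for the divergent pairs without a peak.

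A footprint lay within 1000 bp of the 5′ end in both libraries for 61 of 67 members, against 62.6% of all genes, and in the 300-base promoter for 58, against 51.4%. The 61 were the members with a peak, so footprints added no further promoter.

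The search for exact motif letters on both strands separated the classes further. NF-Y boxes (CCAAT, bound by the trimer NF-Y) were in all 18 H2A and all 18 H2B promoters, in 11 of 12 H3 and 5 of 6 H1 promoters, and in 4 of 13 H4 promoters (30.8%), against 39% of all promoters. The octamer was in 8 of 18 H2B and 7 of 18 H2A promoters and in no H1, H3 or H4 promoter, against 1.57% of all. Since the H2A and H2B promoters of a pair overlap, 1 octamer can count for both genes. A TBP box (TATAAA) was in 37 of 67 members (55.2%), against 12.6%. The AC box was in 4 of 6 H1 promoters, between -117 and -113, against 6.4% of all promoters.

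Matches inside footprints were fewer than matches in all. The shares over all promoters given here include promoters with no footprint. Of all promoters 51.4% held one in both libraries, against 58 of 67 members, so the shares compare unlike sets. Over the members, 37 of 152 NF-Y matches overlapped a footprint in both libraries by at least 1 base and 17 lay wholly inside, where 17.9% and 9.08% of matches in all promoters did. A box in the DNA shared by a divergent pair counts for both genes, so these are matches and the distinct sites are fewer. Of 15 octamers, 2 lay wholly inside, and these are 1 site counted for both Hist1h2ac and Hist1h2bc. Over all promoters 3 of 370 did (0.811%), and these 3 include the same 2, so this share is no separate background. The 5 CRE matches, in Hist1h4a, Hist1h4h and the pair of Hist1h2ag and Hist1h2bj, which counts 1 site for both genes, all lay wholly inside footprints in both libraries (53.6% over all promoters). The MYB site was in 5 of 67 members (7.46%, against 4.18%), and the one overlapping a footprint in both libraries was that of Hist1h2ba. An X-box, the motif of RFX factors, was in no member, against 0.274% of all promoters. A match describes the letters of the reference and does not show what is bound, and the absence of a match says only that the letters are not in this window.

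**Figure D5:**
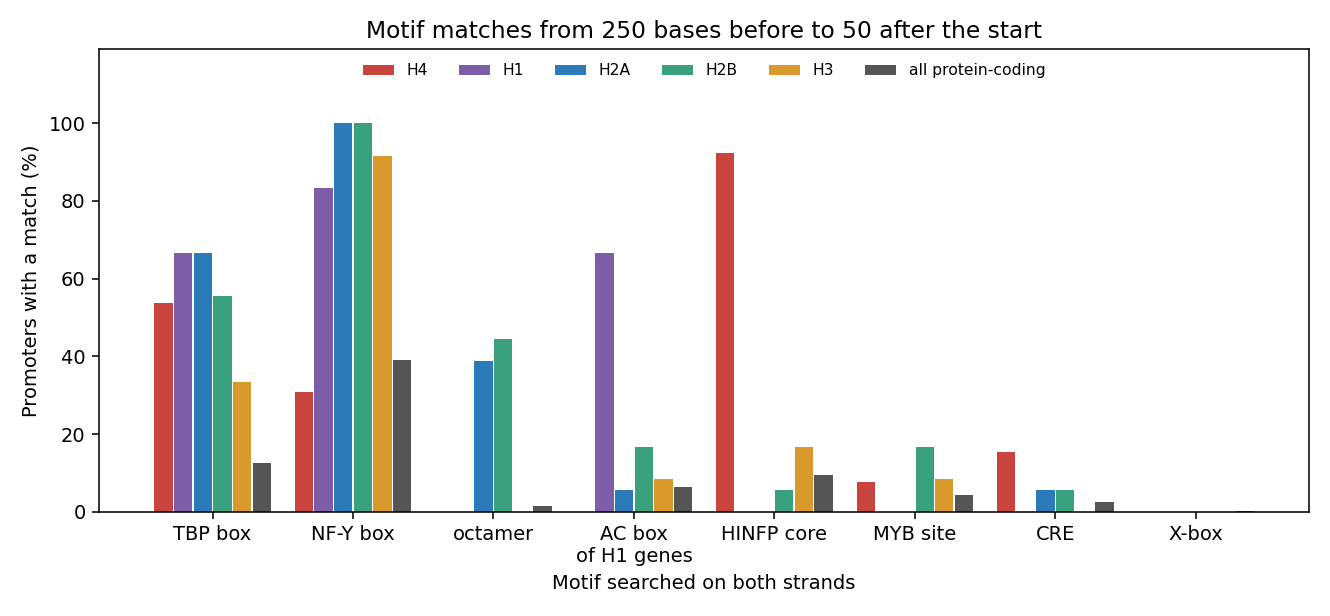
Share of promoters (250 bases before to 50 after the 5′ end) with at least 1 exact match to each motif on either strand, by histone class, with all protein-coding promoters in grey. The HINFP core stands out in H4 (92.3% against 9.58%), the octamer in H2A and H2B (38.9% and 44.4% against 1.57%) and the AC box in H1 (66.7% against 6.4%).

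The members' promoters were poorer in G and C than promoters in general, with a median GC content of 45.3%, against 55%. They held more CpG for their composition, with an observed over expected ratio of 0.75, against 0.524. The median ratio of the 3 testis variants was 0.455, below the medians of all 5 classes, but the promoters of Hist1h2aa and Hist1h2ba largely overlap.

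Between the libraries, the members' values were shifted against those of other genes. On the log2 scale, replicate 2 over replicate 1 had a median of 0.15 over the 61 members with a peak in both, with 44 of 61 higher in replicate 2, against -0.07 over 14022 genes, with 5504 higher. The shift was not common to all members: the median was -0.09 in Hist2, with 3 of 9 higher, and 0.06 in H4. Members that share a peak are counted separately, and the 61 had 46 and 45 distinct highest peaks in replicates 1 and 2. After division by the median peak value of each library, the medians were 0.25 over the members and 0.03 over all genes, so the sign over all genes depends on the scaling. The members farthest from their median were Hist1h1t (0.68), Hist4h4 (-0.39) and Hist2h4 (-0.29). The labels name no condition that separates the libraries, and the part of library preparation in this shift was not tested.

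Most other genes of the histone supply that were examined also had a promoter peak. Of 14 replication-independent histone genes, whose products are not tied to S phase, 11 had one in both libraries (78.6%), against 64% of all genes. In the 300-base promoter 9 of the 14 had one, against 53.8%. With 14 genes these counts lie near the shares of all genes, and no trait of the set is drawn from them. The median promoter value was 3.07 ± 0.29 for the members and 4.24 ± 0.28 for these genes. In the 300-base promoter the medians were 3.01 ± 0.36 and 2.96 ± 0.66, so the order was not kept there. The highest were H2afv (18.5 in replicate 1 and 19.9 in replicate 2), H2afx (15.7 and 19.9), which is phosphorylated at DNA breaks, and H2afz (16.2 and 16.2). No peak lay at the annotated 5′ end of H1foo, the oocyte linker histone, of Hils1, a spermatid H1-like gene, or of H3f3b, which encodes H3.3.

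Genes for histone gene transcription, histone mRNA processing and histone chaperoning had higher values. Of 24 listed, 23 were matched by symbol (Symplk was not). A peak in both libraries was present for 21 of 23, against 64% of all genes, and the median was 9.81 ± 1.0. Nfya, a subunit of NF-Y, had 23.9 and 21.8, Hinfp 17.9 and 21.6, and the chaperone gene Asf1b 17.6 and 20.7. Npat, the coactivator of the histone locus body, had 17.1 and 16.3, and Slbp, which binds the stem-loop of histone mRNA, 10.5 and 11.5. Zfp473 and Nfyc had no peak at their annotated 5′ ends.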

How the data were processed

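Per library, 2 peak lists of unequal length, 1 list of footprints and 1 FDR track were used, all on mm10 and made from that library without pooling, per the deposited text descriptions. Peak values are a signal on the authors' own scale. Below 1, 100% of them were whole multiples of 1 step (0.00538 in replicate 1 and 0.00377 in replicate 2, within 0.05 steps). The meaning of a step is not known here. The deposited FDR track lists q-values below 0.05 along the genome. The deposited p-value column of the footprint files holds the threshold 0.01 in all rows, so footprint positions alone were used. Not given in the sources used here: aligner, callers, depth in reads, and where reads from repeats were put.

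The start of a gene was its 5′ end in GENCODE M21, and 0 entries of the files lay beyond a chromosome end of GRCm38.p6. Medians were taken per library, then the mean and SD over 2 libraries. No test was made: the design has 1 group. Motifs were searched in the GRCm38.p6 genome, the sequence of one parental strain, around GENCODE starts, and a motif's position is that of its first base along the gene unless its middle is named. Printed promoters are RefSeq's and matched 62 of 67 members (not Hist1h2bc, Hist1h3a, Hist1h3f, Hist2h2be and Hist2h4). Words of 32 bases were counted on both strands of the genome. Python 3.11.15, numpy 2.4.6, pandas 2.3.3 and matplotlib 3.10.9 were used, and the assignment of peaks to genes was tested on simulated data. The members, gene lists, markers and motifs were chosen with earlier results of these data known. Genes named with values were the testis variants, the 2 highest and 2 lowest of each class, all of Hist2 to Hist4, members without a peak, the 3 with the most deviating library ratio and, from each list, the 3 highest and those without a peak. Other members (the remaining H4 genes, divergent pairs and borrowed peaks), and Npat and Slbp, were named after their values were seen.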

Additional observations from a re-analysis of the deposited data

How the results depend on the processing

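The counts of members with a peak, of members with a footprint and of pairs sharing a peak stayed within 1.5 times the reported ones under each alternative run: windows of 500 and 2500 bp, all annotated starts, RefSeq starts, the 300-base promoter, peaks at or above the library median, the shorter peak list, footprints inside a peak, pairs at most 500 bp apart, peaks between the starts, and members with single-copy promoters. That limit is loose, because most members and pairs were already counted and a rise of that size was not possible. Of 40 recomputed medians of promoter values, 34 moved by less than the spread between libraries and 6 by more. With a window of 2500 bp the median was 4.15 for the members, 4.04 for the members other than testis variants and 3.40 for those other than H4, and neighbours' peaks enter that window by construction. In the 300-base promoter the median of the testis variants was 3.86. Without members under 50% single-copy words the median was 3.94 for the members and 3.83 for those other than testis variants. Dividing by the library's median peak value gave a median log2 ratio of replicate 2 over replicate 1 of 0.25 over the members, against 0.15 as deposited. The 300-base promoter, the single-copy setting and RefSeq starts were chosen after seeing the data. With 1 library left out, the median ran from 2.87 to 3.27 for the members, from 4.21 to 4.68 for the testis variants, from 2.84 to 3.27 for the other members, from 7.62 to 8.42 for H4 and from 2.62 to 3.15 for the rest. No paired analysis was possible because there is 1 group.

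Depth in reads is unknown, 2 libraries with 1 donor label limit the precision, and repeated sequence limits what can be said of 10 members. Both alleles of the hybrid were set on 1 reference.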
